A study of Mus musculus with 9 samples.

Results

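Calcitonin, parathyroid hormone and 8 genes tied to the cells that make, store or sense such hormones were followed through single-cell RNA profiles of the adult mouse thyroid. The 10 genes were taken by name: the hormone genes Calca, Calcb and Pth, the granins Chga, Chgb and Scg2, the proprotein convertase inhibitor Pcsk1n, the receptors Ret and Casr, and the transcription factor Gcm2. All 10 were found among the 52636 genes of the count table, of which 27605 had at least 1 unique molecular identifier (UMI, the tag that marks 1 captured RNA molecule). The samples came from male C57BL/6 mice that carried no engineered allele and were aged from 10 weeks, to 12 weeks by the design text or 14 weeks by the treatment protocol. Each mouse received 1 injection into the peritoneum, and thyroids were taken 7 days later. Controls, RW, received anti-ragweed isotype antibody at 40 mg/kg. The aJ1aJ2 group received antibodies that block the Notch ligands Jag1 and Jag2 at 20 mg/kg each, and the aN1aN2 group had the receptors themselves blocked, with anti-Notch1 at 5 and anti-Notch2 at 10 mg/kg. Each of the 9 samples, 3 per group, was a pool of 6 thyroids, so a p-value measures the spread between pools.

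Thyroid tissue holds more than 1 endocrine lineage. Follicular cells, the thyrocytes, make thyroid hormone on the protein thyroglobulin, whereas scattered C cells secrete calcitonin, the peptide that lowers blood calcium, and the parathyroid glands on or in the thyroid secrete parathyroid hormone, which raises it. Peptide hormone cells and neurons share a regulated secretory route: prohormones are cut by convertases and packed with granins into dense-core granules that are released on demand.

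The 9 libraries held 10186 cells and 63121420 UMIs. A library held 583 to 1805 cells and 3013324 to 11880793 UMIs, and the median UMIs per cell were 3202 to 4149 in RW, 2823 to 3810 in aJ1aJ2 and 2098 to 2237 in aN1aN2. All 3 aN1aN2 libraries stand in a series of sample numbers of their own, so that series and the treatment cannot be told apart. Only 15 of 10171 barcodes occurred in more than 1 library, no duplicate libraries were found, and no doublet caller was run. Cells carry 1 of the authors' 16 labels. The marker lists placed thyrocyte genes in Th1 and Th3 (summed level 97080 and 83210 CPM, UMIs of a gene over all UMIs of the cells summed, scaled to the same total) and more weakly in Th2 (28840.0 CPM, with neutrophil genes at 19673 CPM), parathyroid genes in P, Schwann cell genes in S, fibroblast genes in F, endothelial genes in EC1 to EC4 and globins in Eryth1 and Eryth2. Th3 also held the skeletal muscle list at 27224 CPM. Its cells were shallow, with a median of 987 UMIs against 12553 in Th1. C cells have no label of their own.

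Short stretches upstream of 4 members are shown because Scg2 and Chgb, the granins found together with Calca below, share a motif there. RefSeq promoters, from 250 bases before to 50 after the start on GRCm38.p6, were at hand for 8 members, and none for Calcb or Ret. The palindrome TGACGTCA, known as the cyclic AMP response element, was in the promoters of Scg2 and Chgb, 2 of 8 members, and in 1.79% of all 32851 promoters. Its shorter form TGACG, which overlaps the palindrome on both strands, was in 4 of 8 and in 20.8% of all. The letters were searched on both strands, and each window is printed 5′ to 3′ on the strand of its gene, with the motif in capitals. The windows lie at chr1:79440076-79440105 (minus strand, motif from 68 bases upstream), chr2:132781559-132781588 (plus, 72 upstream), chr7:114636404-114636433 (minus, 65 upstream) and chr12:102554886-102554915 (plus, 44 upstream). GENCODE M21 draws longer transcripts, so the first pair lies in exons of Scg2 and Chgb, whereas the other windows lie in no transcript.
Scg2: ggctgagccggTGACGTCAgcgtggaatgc
Chgb: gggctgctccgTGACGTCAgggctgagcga
Calca: aagcacagaggTGACGcaatctgtctgggg
Chga: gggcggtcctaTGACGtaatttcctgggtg
A match in these letters is a description and says nothing of use in these cells. TATAAA was in 2 of 8 members and 13.6% of all promoters, CCAAT in 1 of 8 and 37.4%, and CANNTG, the E-box, in 8 of 8 and 72.3%.

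Calca encodes calcitonin and, by alternative splicing, calcitonin gene-related peptide. The gene (ENSMUSG00000030669, chr7:114631478-114636357 on the minus strand of GRCm38) has 7 transcripts in GENCODE M21, and counts per gene do not separate the 2 peptides' messages. Of its 69190 UMIs, 60.2% lay in Th3 and 37.0% in Th1, although a UMI was found in every label and in 1168 cells (11.5%). Across the 9 samples, as CPM with no further scaling, Calca ran from 636 to 65751 CPM in Th3 (median 14019), from 12.3 to 2526 CPM in Th1 (median 1025), and from 0 to 546 CPM in Th2 (median 132). Th3 stood above Th1 in 7 of 9 samples, and Th1 above Th2 in 8 of 9. Below these, the medians of EC4 (86.7 CPM), Eryth1 (69.8), EC1 (62.8), EC2 (53.7), T2 (39.4), S (35.7), F (30.2), T1 (30.1), M (20.4), EC3 (18.4), SM (13.2), P (9.50) and Eryth2 (8.85) overlapped with their neighbours across samples. A few cells could lift a label: T1 reached 4522 CPM in aN1aN2 1, where 4 cells held its 301 Calca UMIs.

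A single Calca UMI did not mark a cell, since every label held some. Cells with a UMI made up 26.3% of Th1 (95% Wilson interval 23.8 to 28.9, which covers counting error only) and 13.7% of Th3 (11.6 to 16.0). Erythroid cells, which should lack the gene, had shares of 6.12% in Eryth1 (median 1682 UMIs per cell) and 5.22% in Eryth2 (7944.5 UMIs). Thinned to 500 UMIs per cell, the shares were 10.2% in Th3, 5.89% in Th1, 2.44% in Eryth1 and 0.748% in Eryth2. The erythroid shares are read as background, and at equal depth Th2 (8.02%), EC4 (4.49%) and EC2 (3.63%) lay above them too, while EC1 (2.40%) and F (2.25%) were near Eryth1.

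**Figure D1:**
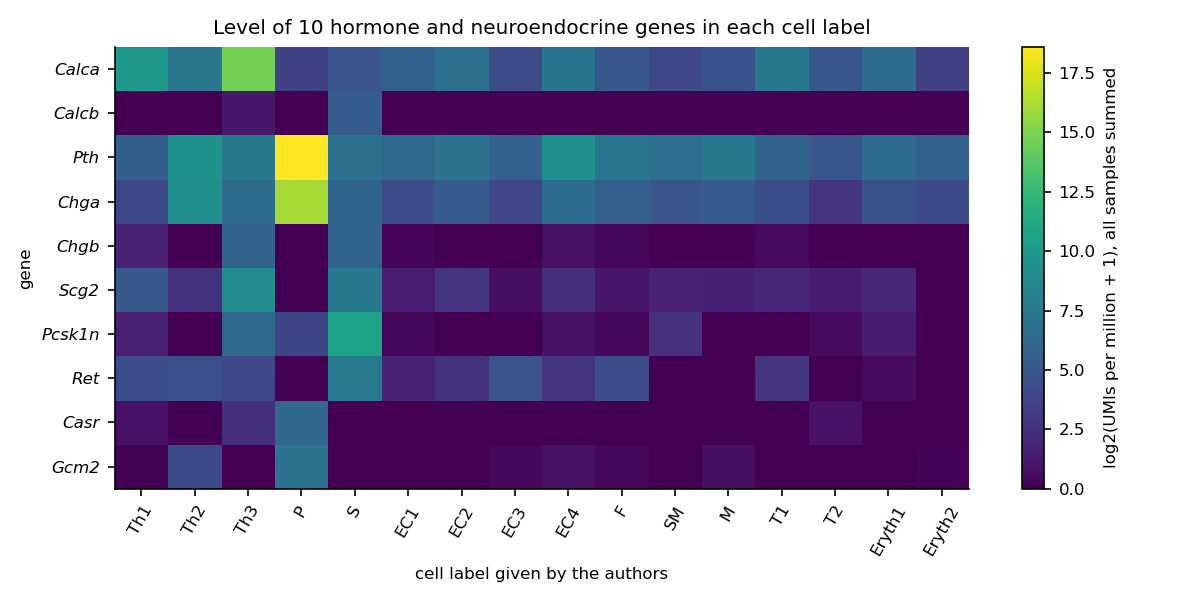
Heat map of the summed level of the 10 genes (vertical) in the authors' 16 labels (horizontal), as log2(CPM + 1) over all 9 samples. Calca is highest in Th3 and then Th1, Pth and Chga in P, and Calcb and Pcsk1n in S.

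Cells of high Calca, defined as at least 5 Calca UMIs that make up at least 1% of the cell's UMIs, numbered 69. Of these 38 carried the label Th3 and 22 the label Th1, and 9 were spread over Th2, EC2, EC4, T1 and Eryth1. The 38 Th3 cells held 99.5% of the Calca UMIs of their label and 59.9% of all Calca UMIs. In them Calca made up 1.26% to 74.2% of the cell's UMIs, with a median of 22.6% and 11 to 11386 UMIs per cell. Among the other 863 Th3 cells, 85 (9.85%) had a Calca UMI and none had more than 9. The richest cell, from RW 1, held 11386 Calca UMIs among 18890, with 164 of Scg2 and 2 of Tg, the thyroglobulin gene. Another, from RW 2, held 9099 among 24925.

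The Th3 cells high in Calca had little thyroglobulin message: Tg made up a median of 0.220% of their UMIs against 7.59% in the other Th3 cells. The 22 Th1 cells differed in this respect, with a Tg median of 8.06% against 8.96% in the other Th1 cells and a Calca median of 1.82% (range 1.04% to 18.5%). They were also deeper, at a median of 13796 UMIs per cell against 1087 in the Th3 cells. The highest of them, from aJ1aJ2 3, held 6772 Calca and 4097 Tg UMIs among 58665. Whether such cells are 2 cells in 1 droplet was not tested.

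**Figure D2:**
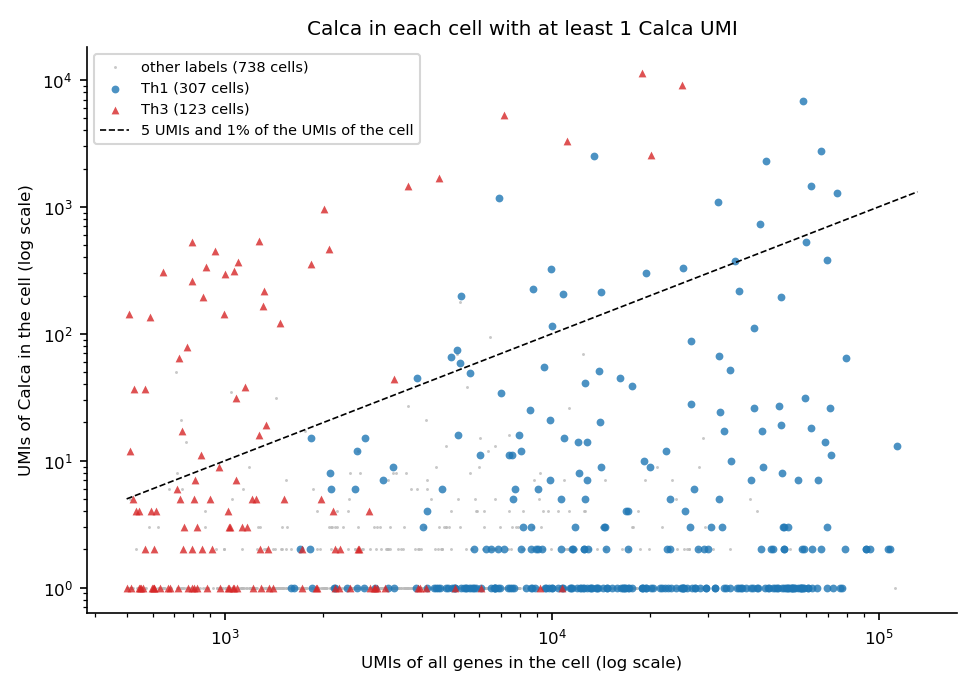
Calca UMIs per cell (vertical, log scale) against the cell's total UMIs (horizontal, log scale) for the cells with a Calca UMI, with 123 Th3 cells as red triangles, 307 Th1 cells in blue and cells of other labels in grey, and a dashed line at 5 UMIs and 1%. Most Th3 cells above the line lie at low total UMIs and far above it, with a median Calca share of 22.6%.

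Granins and processing genes sat in the same cells. Scg2 encodes secretogranin II, a granule protein and a precursor of small peptides. Scg2 (ENSMUSG00000050711, chr1:79434669-79440120, minus strand) was found in 20 of the 38 Th3 cells high in Calca at a summed 6520 CPM, and in 5 of the other 863 at 4.32 CPM. In Th1 it was found in 16 of 22 cells high in Calca (1234 CPM) and in 30 of the other 1147 (6.16 CPM). This held in every sample with such Th1 cells, 8 of 8, and in 6 of 9 samples for Th3.

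Chgb encodes chromogranin B, which helps to form granules. Chgb (ENSMUSG00000027350, chr2:132781278-132795079, plus strand) had all of its 88 Th3 UMIs in 10 of the 38 cells high in Calca. Pcsk1n encodes proSAAS, an inhibitor of prohormone convertase 1. Pcsk1n (ENSMUSG00000039278, chrX:7919822-7924410, plus strand) had all of its 126 Th3 UMIs in 19 of the 38. The 863 other Th3 cells showed neither gene, and in Th1 84.5% of Chgb and 85.2% of Pcsk1n UMIs lay in the 22 cells high in Calca.

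Chga and Casr were also higher in the cells high in Calca, and unlike Chgb and Pcsk1n they were seen in the other Th3 cells as well. Chga encodes chromogranin A, found in endocrine granules in general, and was at 522 CPM in the Th3 cells high in Calca and 58.3 CPM in the others. Ret UMIs were found in 4 of the 38 cells (32.1 CPM against 13.7 CPM in the others). Casr, the calcium-sensing receptor that C cells and parathyroid cells share, was found in 2 of 38 with 6 UMIs (48.2 CPM), against 1 UMI in the 863 others (0.719 CPM). Gcm2 had no UMI in the 38 cells, and Pth was at 72.3 CPM against 196 CPM in the other Th3 cells. These counts moved with depth: Ret was seen in 4 of the 10 cells with at least 2000 UMIs and in 0 of the 28 below that, while Scg2 was seen in 9 of 10 and 11 of 28. The part of depth in them was not tested.

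Other genes of the C cell and secretory list followed the same cells. Pcsk2, prohormone convertase 2, stood at 3252 CPM in the Th3 cells high in Calca against 0.719 CPM in the others. Resp18, a neuroendocrine secretory protein, stood at 2096 against 1.44 CPM, and Scg5, the chaperone of that convertase, at 1919 against 324 CPM. Gfra4, the RET coreceptor of C cells, was at 321 against 6.48 CPM, but among the labels it was highest in P, at 170 CPM. Not every listed gene did so: Grp, a bombesin-family peptide, was at 16.1 CPM against 1150.4 in the other Th3 cells, and Vgf, Slc18a2 and Cacna1h were at 0. Over the 16 labels, genes whose log2(CPM + 1) profile was among the most like that of Calca were Lrrc26 (Pearson r 0.885), Pnoc (0.882), Tspan1 (0.877) and Sftpb (0.874). These correlations describe 16 label sums drawn from the same libraries.

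Pth and Gcm2 marked the 77 cells of label P. Pth encodes parathyroid hormone (ENSMUSG00000059077, chr7:113385580-113388570, minus strand), and 98.7% of its 416448 UMIs lay in P. All 77 cells had it, at 4.68% to 64.3% of their UMIs (median 37.9%). By sample, in CPM with no further scaling, Pth in P ran from 279030 to 452633 CPM, far above its 3737 CPM in EC4 or 3554 CPM in Th2, the highest of any other label in a single sample. Gcm2, the transcription factor that parathyroid development needs (ENSMUSG00000021362, chr13:41101427-41111035, minus strand), had 93.3% of its 149 UMIs in P and was seen in 40 of 77 cells. Casr (ENSMUSG00000051980, chr16:36493696-36562141, minus strand) had 70.3% of its 101 UMIs in P, in 30 of 77 cells, and 20.8% in Th1.

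Chga was the granin of these cells. All 77 had it (4 to 8692 UMIs, median 5.97% of a cell's UMIs), and 97.8% of its 72481 UMIs (ENSMUSG00000021194, chr12:102554969-102565028, plus strand) lay in P. Chgb, Scg2 and Ret had no UMI in P, which for each allows up to 3.90% of such cells to hold one. Calca was seen in 10 P cells with at most 2 UMIs each. Over labels, Pth was most like Chga (r 0.981), Spink8 (0.968), Cryba2 (0.948), Kl (0.943) and Klk1b22 (0.937). Among members, Pth followed Gcm2 (0.922) and Casr (0.822), and Calca followed Scg2 (0.755) and not Pth (-0.147).

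Parathyroid cells were caught unevenly. RW 1, 2 and 3 held 6, 0 and 9 cells of label P, the aJ1aJ2 samples held 11, 3 and 11, and the aN1aN2 samples held 11, 22 and 4. Summed Pth ran from 34.0 CPM in RW 2 to 22040 CPM in aN1aN2 2, the samples with the fewest and the most P cells. It did not follow these numbers throughout: aJ1aJ2 4, with 11 P cells, stood at 1143 CPM, below aJ1aJ2 3 with 3 (1246 CPM). Outside P, Pth was seen in 5.47% to 49.9% of a sample's cells, with levels of 63.3, 34.0 and 71.1 CPM in RW 1, 2 and 3, 81.9, 34.2 and 95.7 CPM in aJ1aJ2, and 146, 363 and 90.3 CPM in aN1aN2. The lowest of these values are those of the samples with 0 and 3 P cells, and the highest is that of the sample with 22. UMIs of Pth per UMI of Chga were 4.56 to 7.82 within P and 2.38 to 5.74 in the other cells of the same samples. Only 16 cells outside P had high Pth by the 5 UMI and 1% rule, 5 of them in EC4. The share of free RNA in these values was not tested.

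**Figure D3:**
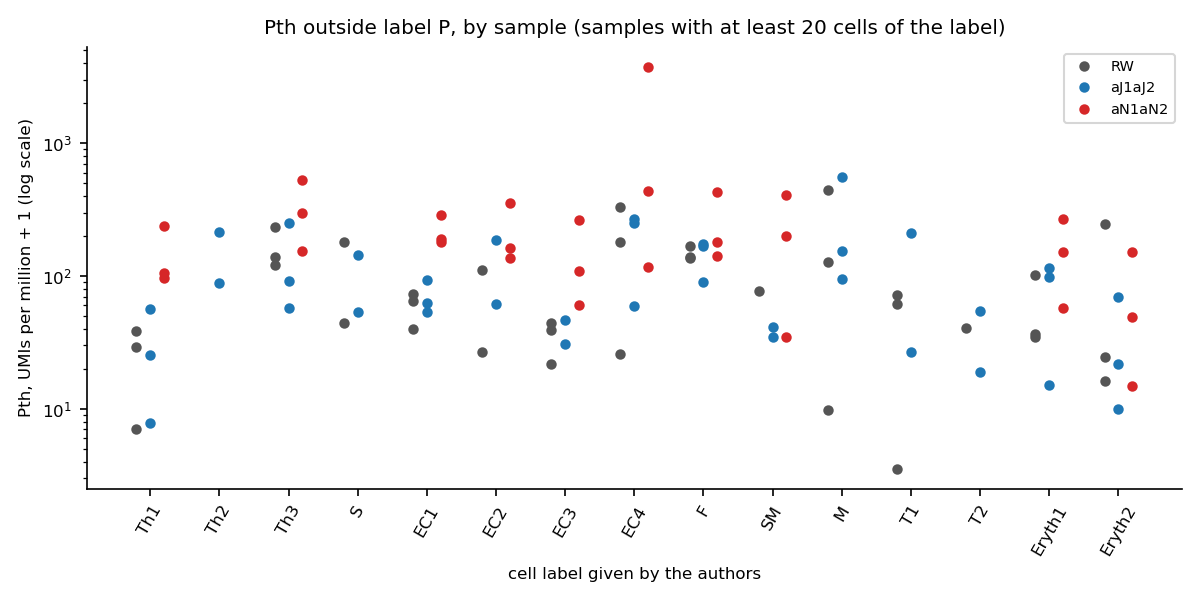
Pth level (vertical, CPM + 1, log scale) in each label other than P (horizontal), 1 point per sample with at least 20 cells of that label, coloured by group. Pth is present in nearly every label at a low level, with the highest point in EC4 of an aN1aN2 sample.

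Most UMIs of Pcsk1n and Calcb came from 8 cells of 1 control library. Pcsk1n had 84.1% of its 1305 UMIs in label S, and 1080 of them in 8 cells of RW 1, each with 58 to 203 Pcsk1n UMIs, whereas the next highest cell had 23. The limit of 50 Pcsk1n UMIs that sets these cells apart was chosen after the values were seen. The same 8 cells held 28 of the 31 UMIs of Calcb (ENSMUSG00000030666, chr7:114718643-114723365, plus strand), the second gene for calcitonin gene-related peptide. They also held 41 Chgb UMIs (21.4% of all), 121 Scg2 UMIs (6.58%) and 127 Ret UMIs (15.5%), each in 8 of 8 cells. Calca had 1 UMI in them, Pth had 4, and Casr and Gcm2 had 0. The longest run of bases shared with the transcript Calcb-201 was 60 for Calca-201 and 13 for Calca-202, and 12 and 7 within their last 300 bases, where 3′ tags fall. The other transcripts of these genes were not compared.

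These cells carried many neuronal genes. Of 16 neuron genes 14 had a UMI in them, and for 10 of 16 most UMIs of the whole series lay there, among them Vip, a neuropeptide, with 856 of the 863 UMIs in all cells, and Prph, a nerve filament protein, with 363 of 370. Summed over the list they held 3520 of 9152 UMIs (38.5%), because Npy (1.97%), Stmn2 (14.9%) and Nefl (14.5%) lay mostly in other cells. Th and Dbh, enzymes of noradrenaline synthesis, had none. The other 20 S cells of that library and the 165 S cells of other samples had no UMI of Chgb, Scg2 or Calcb. The 8 cells had a median of 21017 UMIs against 2496.5 in the 20 others.

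Ret encodes the receptor tyrosine kinase for neurotrophic factors of the GDNF family, is known in C cells and enteric or autonomic neurons, and is mutated in hereditary medullary thyroid cancer. Its 818 UMIs (ENSMUSG00000030110, chr6:118151745-118197718, minus strand) were not limited to such cells here: 56.6% lay in Th1, 15.6% in S, 9.66% in EC3 and 7.95% in F. By sample the level in EC3, again unscaled, was 8.10 to 57.5 CPM (median 25.4), in Th1 6.77 to 28.7 CPM (median 18.0), in F 0 to 39.3 CPM (median 16.3) and in Th3 0 to 33.1 CPM (median 15.9). These ranges overlap. Of 302 Th1 cells with a Ret UMI, 9 were high in Calca and 208 had no Calca UMI, and 95.9% of the label's Ret UMIs lay in cells that were not high in Calca. Cells with Ret were deeper, with a median of 22740.5 UMIs against 10231 for Th1 cells without it. Ret had no UMI in Eryth2, P, T2, M or SM.

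Sums over all cells of a sample were compared first between ligand blockade and control. In such sums fewer cells of a type and less RNA per cell cannot be told apart. From here on, levels by sample are CPM after TMM scaling of the library sizes unless called unscaled, so they differ from the levels by label given before. Calca stood at 1639, 1526 and 1149.5 CPM in RW 1, 2 and 3, and at 533, 849 and 604 CPM in aJ1aJ2 1, 3 and 4. Each aJ1aJ2 sample was below each control, with means of 662 ± 166 and 1438 ± 256 CPM (SD, n = 3 each). The log2 change was -1.12 (SE 0.29), with an adjusted p of 0.400 (Benjamini-Hochberg over all genes, edgeR's quasi-likelihood test). DESeq2 gave -1.11 with an adjusted p of 0.0153. Much of each sum came from 1 cell: the top cell gave 40.2% to 80.4% of Calca in the controls and 21.1% to 94.2% in aJ1aJ2. Without the cells high in Calca, which were chosen on Calca itself, the samples stood at an unscaled 91.8, 66.6 and 68.9 CPM in RW and at 16.0, 79.7 and 60.9 CPM in aJ1aJ2, and the groups overlapped.

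With ligand blockade 0 of the 9 members tested passed edgeR's test, beside 0.0278% of the 14382 genes tested. At an unadjusted p under 0.05 there were 2 members, and 935 of all genes. Calcb, with 31 UMIs, was too low to test. Log2 changes were -1.10 (SE 0.55) for Chgb, -0.70 (SE 0.40) for Scg2, -0.66 (SE 0.37) for Ret and -3.89 (SE 1.25) for Pcsk1n, whose control mean rested on the 8 cells of RW 1. For Pth the change was 0.18 with an SE of 1.48, so even a large difference could not be seen. Chga (-0.08), Casr (0.14) and Gcm2 (0.03) were near 0 with similar uncertainty in P cell numbers.

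Under receptor blockade 1 of 9 members was called, Chgb, beside 16.6% of all genes tested. Chgb stood at 7.04, 4.04 and 2.62 CPM in RW 1, 2 and 3 (74, 30 and 30 UMIs), and at 0.738, 1.05 and 1.25 CPM in the aN1aN2 samples (3, 4 and 3 UMIs). Every aN1aN2 sample lay below every control. Chgb fell by 2.20 on the log2 scale (SE 0.66, Benjamini-Hochberg adjusted p 0.0488 by the same edgeR test). The call was lost when any 1 of the 6 libraries was left out (adjusted p 0.051 to 0.168), and without the 8 neuronal cells of RW 1 (-1.72, adjusted p 0.0776).

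Calca in the same samples stood at 642, 1263 and 647 CPM, against 1149.5 to 1639 CPM in RW, so 1 sample overlapped. Its change of -0.76 (SE 0.29) had an adjusted p of 0.101, and without aN1aN2 2 it was -1.17 (adjusted p 0.0277). DESeq2 called Calca in this contrast too, as did edgeR with no filter on low counts. Here too 1 cell gave 41.7% to 74.9% of a sample's Calca. Without the cells high in Calca, the aN1aN2 samples stood at an unscaled 84.0, 90.6 and 116 CPM beside 66.6 to 91.8 CPM in the controls, with an overlap. Scg2 stood at 45.8, 40.3 and 25.3 CPM in RW 1, 2 and 3 and at 8.86, 28.7 and 17.5 CPM in aN1aN2, with an overlap and a change of -1.01 (SE 0.43, adjusted p 0.131). Ret stood at 25.0, 9.57 and 13.5 CPM in RW and at 9.60, 7.06 and 7.48 CPM in aN1aN2, where 1 sample lay just above the lowest control. Its change was -0.99 (SE 0.39, adjusted p 0.114), and -1.25 (adjusted p 0.043) without RW 2. Pcsk1n stood at 105, 4.72 and 5.07 CPM in RW and 3.69, 7.58 and 1.25 CPM in aN1aN2, and its change of -3.12 (adjusted p 0.115) became 0.061 without the 8 cells and -3.63 (adjusted p 0.0476) without RW 2. All of these adjusted p-values are from edgeR's quasi-likelihood test.

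Pth, Chga, Gcm2 and Casr, the members with most of their UMIs in P, showed no call in these sums. For Pth the change was 1.10 (SE 1.49), for Chga 0.85 (SE 1.41), for Gcm2 0.76 (SE 0.98) and for Casr -0.10. With the P and S cells left out, Pth rose by 2.07 (adjusted p 0.022, edgeR) and Chga by 1.31 (adjusted p 0.0218). Receptor against ligand blockade gave 0 of 9 calls by edgeR and by DESeq2, beside 9.94% of all genes by edgeR and 4029 genes at an unadjusted p under 0.05. There Calca differed by 0.36, Chgb by -1.10 and Ret by -0.33. The contrasts share samples, so that these values stand side by side only.

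**Figure D4:**
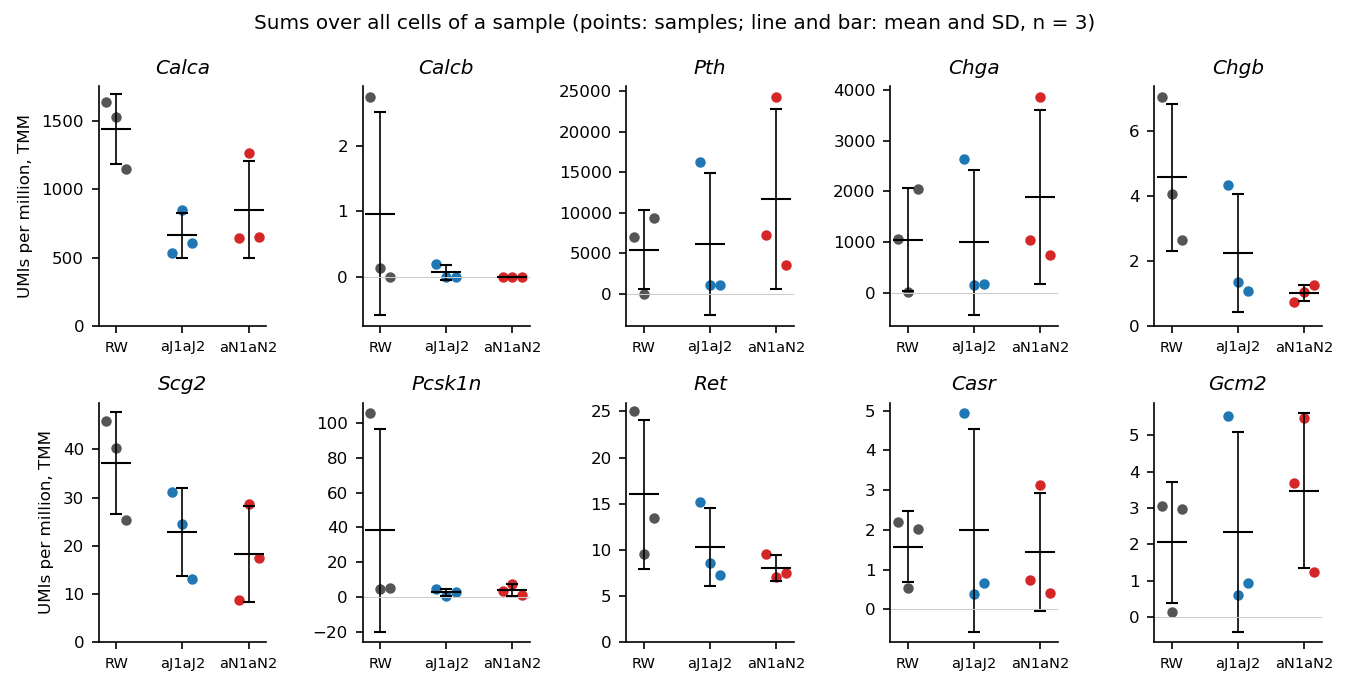
Summed level of each of the 10 genes (vertical, CPM after TMM scaling) in the 3 samples of each group (horizontal), with points for samples and bars for the mean and SD, n = 3. Chgb in aN1aN2 lies at 0.738 to 1.25 CPM, below all controls, and Pcsk1n has 1 control sample at 105 CPM.

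Restricting the sums to Th1, Th2 and Th3, where most cells high in Calca are, brought 6 of the members tested past edgeR's threshold under receptor blockade, beside 33.3% of all genes tested there. Chgb fell by 2.33 (adjusted p 0.0263), Calca by 1.30 (0.0149), Scg2 by 1.41 (0.0485) and Ret by 1.00 (0.031). The Calca values rest on few cells, since 77.6% to 95.6% of a sample's Calca in these groups lay in its 3 to 10 cells high in Calca. Pth rose by 1.98 (0.00773) and Chga by 0.95 (0.0369).

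Within Th3 alone, Calca stood at 40049, 86526 and 61149 CPM in RW 1, 2 and 3, at 22699, 2961 and 16974 CPM in aJ1aJ2 1, 3 and 4, and at 4994, 16150.1 and 714 CPM in aN1aN2 1, 2 and 3. Both antibody groups lay below all 3 controls. The log2 changes were -2.14 (SE 0.95, adjusted p 0.998) for ligand and -3.10 (SE 0.99, adjusted p 0.102) for receptor blockade by edgeR's quasi-likelihood test. DESeq2 put the adjusted p of the second at 0.00748, and without aN1aN2 2 edgeR gave -4.45 (adjusted p 0.0364). Muscle RNA moved in 2 of these samples: the skeletal muscle list, with 10 of 10 genes seen, stood at an unscaled 88107 CPM in Th3 of aJ1aJ2 1 and 161106 CPM in aN1aN2 2, and at 66.2 to 1399 CPM in the other samples. Its median change was 5.81 under ligand and 7.08 under receptor blockade with 0 of 9 genes called by edgeR, and its part in the Calca values was not tested.

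The Th3 cells high in Calca numbered 16 in RW, 15 in aJ1aJ2 and 7 in aN1aN2, with 78301, 37113 and 9126 UMIs in all. Scg2 had 580, 225 and 7 UMIs in these cells, in 9, 10 and 1 of them, or an unscaled 7407, 6063 and 767 CPM. The Th1 cells high in Calca, 7, 7 and 8 of them, held 250, 289 and 154 Scg2 UMIs, or an unscaled 895, 1443 and 1880.5 CPM, highest in aN1aN2 where the Th3 cells were lowest. A few cells gave most of these UMIs in both labels: in Th3 3 RW cells gave 239, 164 and 143 and 1 aJ1aJ2 cell gave 128, and in Th1 1 aJ1aJ2 cell gave 215 and 1 aN1aN2 cell 105. No order of the groups is read from either label. In the Th3 cells Chgb had 59, 29 and 0 UMIs, and its unscaled 753.5 CPM in RW compares with a limit of 329 CPM that 3 counts would give in aN1aN2. Of the control UMIs, 23, 17 and 13 came from 3 single cells, so no order of the groups is read for Chgb either. Pcsk1n had 80, 32 and 14 UMIs, at 1021.7, 862 and 1534 CPM. Of the 14 UMIs in aN1aN2, 12 lay in aN1aN2 2 and 10 in 1 of its cells, so no order is read for Pcsk1n. For Th3 as a whole, Scg2 had 166, 247 and 170 UMIs in RW, 157, 0 and 71 in aJ1aJ2 and 7, 0 and 0 in aN1aN2, with a change of -5.32 (SE 1.58, adjusted p 0.0808, edgeR) under receptor blockade. It was called by edgeR with only the 2 groups in the fit (adjusted p 0.0201) and with no filter on low counts. Adjusted p-values of label fits with no filter are not read as the spread between pools. They were far smaller for a like change: for Pth in Th1 edgeR gave 6.8e-53 with no filter, against 0.00213 in the fit as reported.

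Label by label, ligand blockade gave 0 calls among 36 pairs of a member and a label in 12 labels, beside 0.662% of all such pairs. By edgeR 2 of the 36 had an unadjusted p under 0.05, and DESeq2 called 0. Without RW 3, 5 members were called in S (Calcb, Chgb, Pcsk1n, Ret and Scg2, all lower in aJ1aJ2), but the control arm is then RW 1 alone, with its 8 neuronal cells, and takes its spread from the other samples, so these calls compare 1 library. Receptor blockade gave 10 among 31 pairs in 9 labels. Of these 9 were higher, beside 10% of all pairs, and 1 was lower, beside 9.87%. Against ligand blockade it gave 8 among 33 pairs in 10 labels, all higher, beside 6.4% of all pairs. The higher calls concerned Pth, Chga and Calca in labels where these genes are at a low level. None was in Th3, and P and Th2 had too few cells per sample for this fit.

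EC1, the largest endothelial label, had 3 of the calls. Pth there stood at 65.2, 40.0 and 73.6 CPM in RW 1, 2 and 3, at 61.9, 53.0 and 93.6 CPM in aJ1aJ2, and at 189.8, 287 and 181 CPM in aN1aN2. Calca stood at 36.6, 64.7 and 27.3 CPM in RW, 29.3, 28.1 and 78.8 CPM in aJ1aJ2 and 119, 172 and 166 CPM in aN1aN2. Every aN1aN2 sample was above every other sample for both genes. By edgeR's quasi-likelihood test against RW, Pth rose by 1.85 (SE 0.23, adjusted p 5.8e-06), Calca by 1.86 (SE 0.33, adjusted p 0.000329) and Chga by 1.39 (SE 0.33, adjusted p 0.00503). Thyrocyte genes moved with them: 4 of 5 tested in EC1, Tg, Pax8 and Epcam among them, were higher under receptor blockade, with a list median of 1.69 beside -0.01 for all genes, of which 827 of 9369 were called higher in EC1. In EC4, where the same members were called, 1 thyrocyte gene was tested and had a change of -0.42 with no call. No EC1 cell of RW or aN1aN2 was high in Calca or Pth by the 5 UMI and 1% rule. The part of free RNA in these changes was not tested.

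EC4, a shallow endothelial label, had the same 3 genes called, of 3 members tested, beside 654 of 3101 genes called there (21.1%). Calca stood at 70.6, 104 and 84.7 CPM in RW and at 211, 213 and 524 CPM in aN1aN2 and rose by 1.82 (SE 0.40, adjusted p 0.00141, edgeR). In aJ1aJ2 it stood at 47.4, 194 and 101 CPM. Pth stood at 221, 29.6 and 395 CPM in RW and 489, 4321 and 133 CPM in aN1aN2, with an overlap, and its rise of 2.82 (SE 0.72, adjusted p 0.00543) became 0.52 (adjusted p 0.535) without aN1aN2 2 and 1.07 (adjusted p 0.103) without the cells high in Calca, Pth or Pcsk1n. DESeq2 did not call it (adjusted p 0.137). Calca without those cells, which were chosen on these genes themselves, was higher by 1.36 (adjusted p 0.00209), and Chga was then too low for the fit. Chga rose by 1.61 (SE 0.54, adjusted p 0.0344), a call lost without aN1aN2 2 (0.484), RW 1 (0.138) or RW 2 (0.108) and by DESeq2 (0.0646). In EC3 1 of 4 members tested was called, beside 5.91% of genes there. This was Pth, which rose by 2.14 (SE 0.44, adjusted p 0.00853, edgeR), and without aN1aN2 2 the change was 1.35 (adjusted p 0.129).

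In Th1 3 of 5 members tested were called under receptor blockade, beside 34.4% of all genes there (1814 of 10627 higher and 1839 lower). Pth and Chga were the higher ones, and stayed called with each library left out in turn. Pth stood at 28.0, 6.07 and 38.0 CPM in RW 1, 2 and 3, at 58.1, 6.75 and 23.9 CPM in aJ1aJ2 1, 3 and 4, and at 96.0, 233 and 110.0 CPM in aN1aN2. Chga stood at 8.43, 3.37 and 10.3 CPM, at 14.0, 12.1 and 4.08 CPM, and at 29.1, 56.4 and 48.4 CPM in the same order. The aN1aN2 samples lay above all others for both genes. By edgeR's quasi-likelihood test Pth rose by 2.44 (SE 0.52, adjusted p 0.00213) and Chga by 2.39 (SE 0.34, adjusted p 7.3e-05). Depth moved with this: Th1 cells had a median of 12535 to 22558 UMIs in RW and 5737 to 7558 in aN1aN2. Pth over all cells outside P was also higher, at an unscaled 90.3 to 363 CPM in aN1aN2 against 34.0 to 71.1 CPM in RW. The part of depth or of free RNA in these changes was not tested. Calca in Th1 stood at 1035, 1037 and 389 CPM in RW and at 964, 1735 and 1644 CPM in aN1aN2, with a change of 0.82 (adjusted p 0.504, edgeR). It was called higher by edgeR with only the 2 groups in the fit (0.82, adjusted p 0.0364) and with no filter on low counts (0.79), a fit whose p-values are not read.

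Receptor against ligand blockade gave calls in the same labels and in SM, by edgeR. In EC1 Calca was higher by 1.65 (adjusted p 0.0016), Pth by 1.64 (4.4e-05) and Chga by 1.52 (0.00487), and in Th1 Pth by 2.49 (0.00479) and Chga by 2.06 (0.000593). With a library left out, the change of Calca in EC1 ran from 1.33 (without aJ1aJ2 3) to 2.39 (without aJ1aJ2 4). In EC4 Calca was higher by 1.17 (0.0192), a call lost without aJ1aJ2 4 (0.166) or aN1aN2 3 (0.195). Pth in EC4 was higher by 2.84 (0.00576), and by 0.55 (0.516) without aN1aN2 2. Pth in SM, with 2 aJ1aJ2 samples in the fit, was higher by 2.33 (0.0141) and was not called without aN1aN2 1 (0.0581) or aN1aN2 2 (0.340). Of these 8 calls DESeq2 made 4, and it also called Pth in EC3 (adjusted p 0.0451), which the edgeR fit as reported did not. It did not call Pth in Th1 (adjusted p 0.0602), Calca (0.0504) or Pth (0.201) in EC4, or Pth in SM (0.411). Without aJ1aJ2 1 the edgeR change of Pth in Th1 was 3.57 (adjusted p 0.00018).

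Among the calls by label the 1 lower, beside 1839 of 10627 genes called lower in that label, was Ret in Th1. It stood at 22.0, 20.9 and 25.5 CPM in RW 1, 2 and 3, at 30.1, 15.6 and 17.5 CPM in aJ1aJ2 1, 3 and 4, and at 15.9, 6.67 and 10.9 CPM in aN1aN2. All aN1aN2 samples were below the controls, and 1 of them lay within the aJ1aJ2 range. Ret fell by 1.03 against RW (SE 0.31, adjusted p 0.0174 by edgeR's quasi-likelihood test), and the call was lost without RW 3 (-0.93, adjusted p 0.0615) or without aN1aN2 2 (-0.71, adjusted p 0.126). Against ligand blockade the change was -0.84 (SE 0.32, adjusted p 0.0742; 0.0349 without aJ1aJ2 3 and 0.0361 without aN1aN2 1), and ligand blockade against control gave -0.19 (SE 0.25, adjusted p 0.818). The lower depth of aN1aN2 Th1 cells moved with this as well. So did thyrocyte genes: in Th1 9 of 13 tested were called lower and 2 higher, with a list median of -0.74 beside 0.02 for all genes. The part of either in the Ret change was not tested. The share of Th1 cells with Ret, 28.6% to 42.2% in RW and 7.81% to 13.3% in aN1aN2, became 0.907% to 1.33% and 0.401% to 0.979% when thinned to 500 UMIs, where the groups overlap.

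Ret in F was at 0 in aN1aN2, whereas in EC3 the aN1aN2 samples lay above the controls. Fibroblasts had 3, 17 and 5 Ret UMIs in RW, 16, 13 and 11 in aJ1aJ2 and 0 in each aN1aN2 sample. The 450166 UMIs of aN1aN2 fibroblasts put the 3-count limit at an unscaled 6.66 CPM. Over each group as a whole, Ret stood 3.96-fold above that limit in RW and 3.15-fold above it in aJ1aJ2. The limit covers counting error only and leaves out the spread between pools, where RW ran from an unscaled 10.5 to 39.3 CPM. Of the 25 control UMIs 17 were in RW 2, and without that library the first value is 2.34-fold. Ret in F failed the low-count filter of the fit as reported. Against RW, edgeR called it lower with no filter, a fit whose p-values are not read. Once it passed the filter, edgeR also called it lower without RW 3 (adjusted p 0.0184), RW 1 (0.0101) or aN1aN2 3 (0.0415). In EC3 it stood at 25.9, 20.2 and 21.4 CPM in RW and at 34.4, 51.1 and 27.9 CPM in aN1aN2, apart in the other direction, with a change of 0.75 (SE 0.51, adjusted p 0.462, edgeR).

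**Figure D5:**
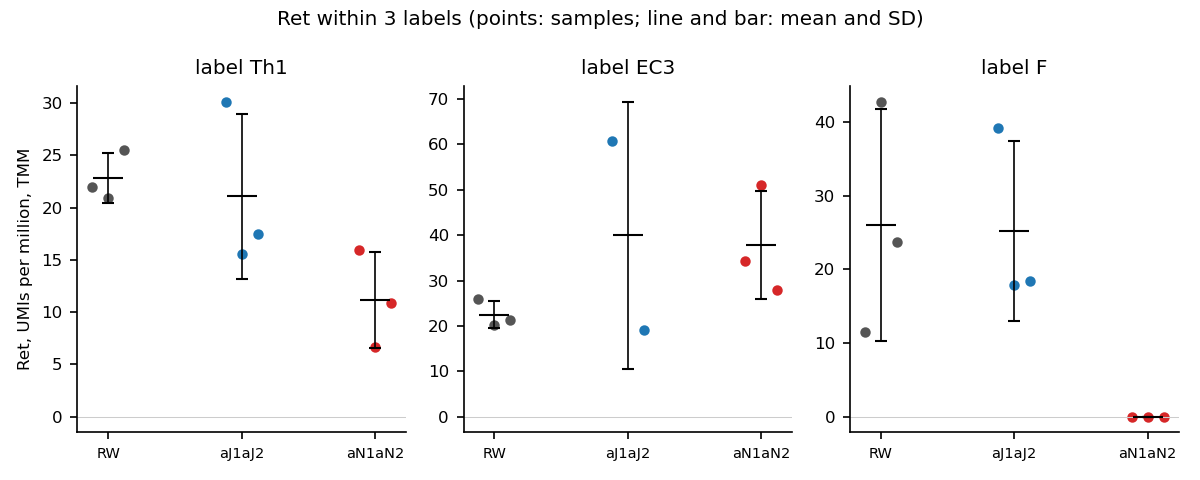
Ret level (vertical, CPM after TMM scaling) in Th1, EC3 and F by group (horizontal), with points for samples and bars for the mean and SD. In Th1 the aN1aN2 samples lie at 6.67 to 15.9 CPM below the controls at 20.9 to 25.5 CPM, and in F they are at 0.

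Shares of cells were compared by an exact two-sided permutation test, which with 3 samples against 3 cannot go below 0.1. Of 36 shares compared the smallest adjusted p was 0.6. Cells high in Calca made up 0.801%, 0.304% and 0.856% of cells in RW 1, 2 and 3, 0.515%, 0.388% and 1.02% in aJ1aJ2, and 0.860%, 0.904% and 0.437% in aN1aN2, so the groups overlapped. Cells with any Calca UMI made up 10.3% to 11.9% in RW, 6.69% to 10.7% in aJ1aJ2 and 14.4% in each aN1aN2 sample. Among the shares of cells with a member's UMI, 0 of 10 had groups apart under ligand blockade, beside 5.21% of genes. Under receptor blockade 4 did (Calca and Gcm2 higher, Chgb and Ret lower), beside 54.1% of genes, and 2 against ligand blockade (Calca higher, Ret lower), beside 53% of genes. The members' counts were near or below these backgrounds.

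The wider lists, chosen with earlier results of these data known, were read from the same sample sums by edgeR. Under receptor blockade 21 of 29 C cell and secretory genes were tested, and 4 fell while 0 rose, beside the 16.6% of all genes called: Chgb, Grp by 1.79 (adjusted p 0.0151), Resp18 by 1.46 (0.0176) and Scg5 by 1.74 (0.00289). The list median was -1.01 beside -0.01 for all genes. Thyrocyte genes were lower as well, 5 of 13 tested, with a list median of -0.46, and Grp and Scg5 are also present in thyrocytes: Scg5 was seen in 863 of the 1147 Th1 cells that were not high in Calca. Of 12 parathyroid genes tested 1 rose, Vdr, the vitamin D receptor, by 1.18 (adjusted p 0.0140). Of 6 neuron genes tested 3 fell, Gap43, Npy and Stmn2, and 74.1% of Gap43 UMIs lay in the 8 cells of RW 1. Of 14 Schwann genes 1 rose, Erbb3, and 2 fell, Gfra3 and S100b. Ligand blockade gave 0 calls by edgeR in each of these 4 lists. In Th3 14 C cell genes were tested under receptor blockade, and Resp18 and Scg5 fell, with a list median of -3.39 beside 0.08 for all genes of that label, 5.03% of which were called.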

How the data were processed

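Libraries were made with the 10x Chromium 3′ v2 kit, and each was sequenced on its own lane, per the labels' protocols. The deposited table holds UMI counts per gene and cell, made by the authors with Cell Ranger on GRCm38, per the submitters' processing notes; versions and annotation are not given in the sources used here. The authors' cell labels and sample assignments were used as deposited, after 2619 annotation lines with shifted columns were realigned. Ensembl IDs were named from GENCODE M21 (52403 of 52636 matched).

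Counts were summed per sample, and per sample and label with at least 20 cells, and fitted with edgeR 4.0.16 in R 4.3.3 (filterByExpr, TMM, quasi-likelihood test, 3 group means over all 9 samples, Benjamini-Hochberg over all genes, called at an adjusted p under 0.05). SE is the size of the log2 change over the root of F. DESeq2 1.42.0 was an alternative. The fit was tested on simulated data with 200 changed genes. Shares used exact permutation with scipy 1.17.1. Thinned shares are the mean over cells of the calculated chance that at least 1 UMI of the gene is among 500 of the cell's UMIs, with no random draw. Figures used matplotlib 3.10.9.

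All 10 members were named throughout, with the 5 genes most like Calca and Pth (at least 50 UMIs) and listed genes that were called or define a cell type. Some genes that this rule names are not reported here. Members, lists and thresholds were chosen with earlier results of these data known. By their titles RW and aN1aN2 share replicate numbers 1 and 2, which the labels do not tie to a shared mouse or batch. The numbers of RW 3 and aJ1aJ2 1 are not in their titles. These libraries stand in a sample-number series apart from that of the other RW and aJ1aJ2 libraries. Alternatives were other scaling, no low-count filter, DESeq2, 2 groups only, each library left out, a replicate block, sums without some labels or cells, and other limits for high cells. The sums without the 8 cells rich in Pcsk1n, and without cells high in Calca, Pth or Pcsk1n, were chosen after seeing the data.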

Additional observations from a re-analysis of the deposited data

Results flagged for a closer look

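Calca under receptor blockade lay apart from the controls in opposite directions by label, and the difference between labels was not tested. It was higher in EC1 (log2 change 1.86) and EC4 (1.82), with all 3 aN1aN2 samples above all 3 controls, and lower in Th3 (-3.10), with all 3 below. The Th3 value was not called by edgeR over all 9 samples (adjusted p 0.102) and was called without aN1aN2 2 (0.0364).

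Ret lay apart in 2 labels too: lower in Th1 (-1.03) and higher in EC3 (0.75), where the adjusted p by edgeR was 0.462. The difference between these labels was not tested.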

How the results depend on the processing

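These contrasts have 3 pools against 3, levels rest on few cells, and counts per gene do not separate calcitonin from calcitonin gene-related peptide messages. Of the single genes tested, 538 alternative values kept direction and side of the threshold, 32 lost it, 30 gained it and 32 changed sign; the cause was not tested. Members called in sample sums under ligand blockade numbered 1 by DESeq2, beside 103 of 14382 genes. Under receptor blockade the fit as reported called 1. With no filter on low counts 5 were called, beside 2453 of 27605 genes, and by DESeq2 2, beside 2696 of 14382. Without the 8 cells rich in Pcsk1n 0 were called, beside 2358 of 14363. Without P and S there were 2, beside 2472 of 14246, and over Th1 to Th3 6, beside 3606 of 10842. With a library left out there were 0 to 2, beside 988 to 2440 genes. Against ligand blockade 1 was called without P and S, beside 1473 of 14246, and 2 over Th1 to Th3, beside 2295 of 10842. With replicate number as a block, 0 were called in sample sums and 16 pairs in label sums, 352 genes in all. Numbers 1 and 2 of RW and aN1aN2 did not pair the samples (r -0.085 over 13435 genes); the other contrasts share fewer than 2 numbers. Label pairs called numbered 9 with no filter for ligand blockade. For receptor blockade they numbered 17 with no filter, against 10 as reported. Against ligand blockade they numbered 19 with no filter and 5 by DESeq2, against 8. The share of all pairs called in these settings is not given here, so these pair counts are not read as results about the members. Over all genes in sample sums, calls ranged from 0 to 103 (DESeq2) for ligand blockade, from 352 to 3606 (Th1 to Th3) for receptor blockade and from 419 to 2295 between the antibody groups.

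Changes of sign in sample sums under ligand blockade were Pth -0.87 with sample-number series as a block and -0.11 over Th1 to Th3, Casr -0.32 with that block, and Gcm2 -0.32 with it and -0.0056 with no filter. With a library left out, Pth ran from -2.31 to 0.82, Chga from -2.68 to 0.87, Casr from -1.66 to 0.73 and Gcm2 from -1.48 to 0.56. Under receptor blockade Pcsk1n was 0.061 without the 8 cells, Casr 0.46 with the replicate block, and Calca in Th3 0.64 without the high cells, which were chosen on Calca itself and held nearly all of it; with a library left out Pth ran from -0.025 to 1.74, Chga from -0.22 to 1.80 and Casr from -1.39 to 0.26. Receptor against ligand blockade gave Calca -0.20 over Th1 to Th3; with a library left out Calca ran from -0.053 to 0.58, Pth from -0.22 to 3.41, Chga from -0.17 to 3.53, Scg2 from -0.85 to 0.027, Ret from -0.53 to 0.020 and Casr from -1.59 to 1.55.

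Differences in the share of cells high in Calca, in percentage points, were -0.180 (receptor blockade against control) and -0.155 (against ligand blockade) at 10 UMIs and 5%. With a library left out they ran from -0.203 to 0.115 (ligand), -0.0954 to 0.228 (receptor) and -0.0357 to 0.282 (receptor against ligand), and high Pth from -0.0214 to 0.811 (ligand). Members with groups apart numbered 1 without erythroid cells and 0 to 3 with a library left out (ligand), 2 thinned and 2 at 2 or more UMIs (receptor), and 1 thinned, 1 at 2 or more UMIs, 1 without erythroid cells and 2 to 5 with a library left out (receptor against ligand). The share of all genes with groups apart was not computed for these settings. The counts are therefore not read as results about the members.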
